A study of Mus musculus with 10 samples.

Results

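Haploid epiblast-like cells (EpiLC) without functional p53 were set against wild-type (WT) EpiLC by RNA sequencing, with 1 library of each. EpiLC are made from embryonic stem cells (ESC) and stand for the early post-implantation epiblast, between naive ESC and the primed epiblast stem cells (EpiSC) that are grown from the embryo. The genes compared were the autosomal genes with at least 100 counts in either EpiLC library, which were 10713 of the 54532 genes in the count table. The strain of every library was labelled 129SV. The 2 EpiLC libraries carry the genotype labels P53 - haploid and wild type haploid; the series' design text names WT-EpiLCs with no ploidy. For context, levels were read in 2 haploid p53-KO EpiSC libraries, 1 diploid p53-KO EpiSC library, 2 diploid WT EpiSC libraries (1 titled male and 1 titled fema, taken as female), 1 haploid and 1 diploid WT ESC library, and 1 library of mouse embryonic fibroblasts (MEF). The sources used here do not give how Trp53 was disrupted, from which clones the EpiLC came or how long they were induced.

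p53, encoded by Trp53, is a transcription factor that is stabilised by DNA damage and other stress and then activates genes that stop the cell cycle, repair DNA or start apoptosis. Haploid mammalian cells tend to turn diploid in culture, and loss of p53 is a known way to slow this. When ESC become EpiLC, a naive network around Esrrb, Klf2 and Tbx3 is switched off while Fgf5, Otx2 and the de novo DNA methyltransferases are switched on. Interferon-stimulated genes are the antiviral genes that cells switch on after interferon binds its receptor, and pluripotent cells normally respond to it weakly.

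The design text speaks of triplicates, but the tables hold 1 column for each EpiLC group, and whether a column pools samples is not stated in the sources used here. With 1 library a group there was no replicate check and no test, so higher and lower describe these 2 libraries. Levels are CPM, the counts scaled to a common library size with TMM factors, and the size of a difference is the log2 ratio of p53-KO over WT, with a prior count of 2. Intervals beside a log2 ratio are exact 95% intervals of the count ratio and cover counting error only. A gene was counted as higher or lower when the 2 libraries differed at least 2-fold. The total counts were 15862113 in the p53-KO EpiLC library and 18156542 in the WT EpiLC library, so that 3 counts, taken here as the floor for a count of 0, equalled 0.189 CPM and 0.194 CPM.

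Trp53 itself (chromosome 11, bases 69580359 to 69591873 of mm10) had 32.9 CPM in the p53-KO EpiLC library, against 356 CPM in the WT EpiLC library, a log2 ratio of -3.43 (-3.57 to -3.31). The labels of the EpiLC pair thus matched the order of Trp53 levels, although 523 counts remained in the p53-KO library. Elsewhere Trp53 stood at 50.5 and 61.8 CPM in the haploid p53-KO EpiSC libraries and 2.17 CPM in the diploid one, against 36.9 CPM in the female and 199 CPM in the male WT EpiSC library. It stood at 28.5 CPM in the haploid and 375 CPM in the diploid WT ESC library, and at 129 CPM in MEF. The libraries labelled WT haploid ESC and WT female EpiSC were therefore as low in Trp53 as libraries labelled p53-KO.

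The markers of EpiLC were present in both libraries. Pou5f1, the central pluripotency factor, had 693 CPM in p53-KO EpiLC and 1144 CPM in WT EpiLC, and Otx2, a transcription factor of the epiblast, had 98.0 and 135 CPM. Fgf5, the classical EpiLC marker, had 39.2 CPM in p53-KO EpiLC and 111 CPM in WT EpiLC, and no more than 0.15 CPM in either ESC library. The sex-linked genes did not match the shared label haploid. Ddx3y, Eif2s3y and Uty, which lie on the Y chromosome, had 0.63, 0.63 and 0.126 CPM in the p53-KO library, against 46.1, 47.8 and 26.5 CPM in the library labelled WT haploid EpiLC. The X-linked genes had a median log2 ratio of 0.75 over 443 genes, of which 167 (37.7%) were at least 2-fold higher in p53-KO. Every value below compares these 2 libraries as labelled, and what the Y transcripts mean for the ploidy or origin of the WT library was not tested.

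Of the 10713 genes, 1083 (10.1%) were at least 2-fold higher in p53-KO EpiLC and 723 (6.75%) at least 2-fold lower, 1806 (16.9%) in all. The larger differences leaned to the higher side. At 4-fold, 388 genes (3.62%) were higher and 168 (1.57%) lower, and at 16-fold 92 (0.859%) were higher and 20 (0.187%) lower. The median log2 ratio over all 10713 genes was -0.05. The split depends on the scaling: with total counts only it was 1506 higher and 483 lower, with a median of 0.18, and with upper quartile factors 850 higher and 1119 lower, with a median of -0.25. Libraries of 1 label also differed from each other. Between the 2 haploid p53-KO EpiSC libraries 965 of 11322 genes (8.52%) differed at least 2-fold, and between the male and female WT EpiSC libraries 1633 of 11298 (14.5%). The interquartile range of the log2 ratio was 0.80 for the EpiLC pair, against 0.62 and 0.68 for those pairs. The 82 genes just inside the count minimum, ran from -2.63 to 5.80 with a median of 0.01. The 90 genes just outside it, ran from -3.36 to 4.30 with a median of 0.22.

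**Figure D1:**
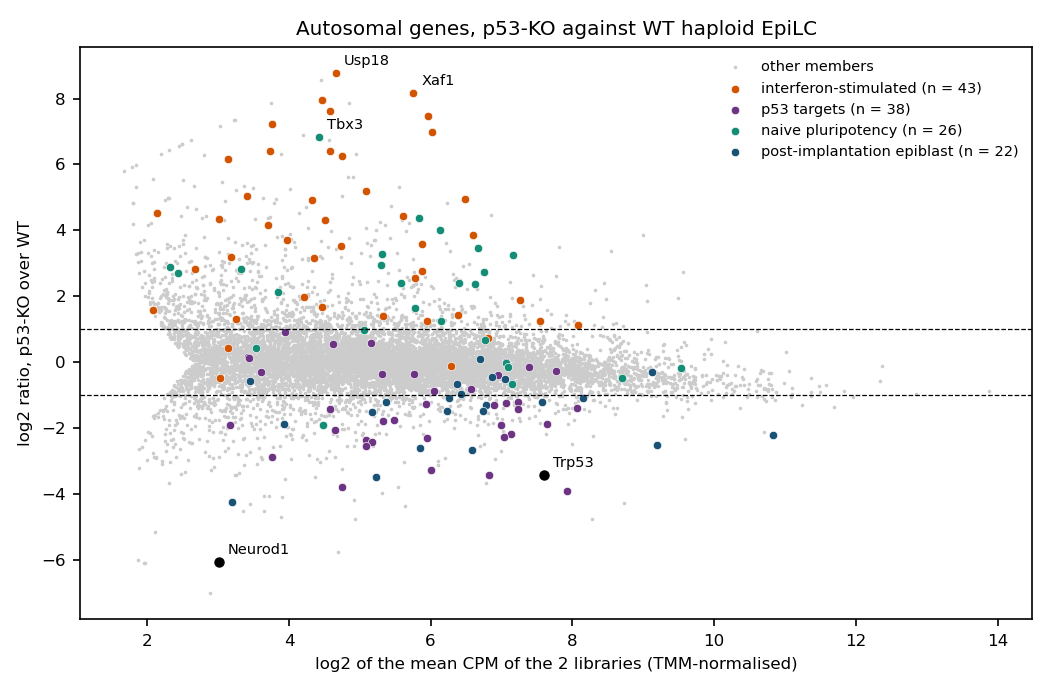
Each point is 1 of the 10713 autosomal genes, with the log2 of its mean CPM in the 2 EpiLC libraries on the x axis and its log2 ratio of p53-KO over WT on the y axis; dashed lines mark 2-fold. Interferon-stimulated genes (orange) and naive genes (green) lie mostly above the upper line, while p53 targets (purple) and post-implantation epiblast genes (dark blue) lie mostly below 0.

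The protein-coding genes with the highest ratios were led by the interferon response. Of the 15 highest, 7 belonged to the interferon-stimulated list: Usp18, Xaf1, Isg15, Rtp4, Ifi27, Trim30a and Oasl1. The other 8 included Tbx3, a transcription factor of naive cells, the water and glycerol channel Aqp3, and genes of matrix and inflammation. Tnc, the matrix protein tenascin C, had 910 counts in p53-KO EpiLC and 2 in WT EpiLC, a log2 ratio of 7.87 (6.94 to 11.84). Ccl2, a chemokine that draws monocytes, had 299 counts in p53-KO EpiLC and 0 in WT EpiLC. With the 0 read as the floor of 3 counts this was 97.2-fold, and the interval began at a log2 ratio of 6.30. Mmp3, a matrix-degrading enzyme, had 297 and 0 counts. These 3 genes were also high in MEF, at 2222 CPM for Tnc, 225 CPM for Ccl2 and 26.6 CPM for Mmp3, and were detected in haploid ESC and in every EpiSC library. Serpina3m, a serine protease inhibitor, had 427 counts in p53-KO EpiLC and 0 in WT EpiLC, and reached 17.9 CPM in haploid ESC but 0 CPM in MEF. Tinagl1, a matrix protein, had 47.2 CPM in p53-KO EpiLC and 0.323 CPM in WT EpiLC, and Gsdmc4, a gasdermin, had 260 counts and 0.

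At the low end stood Neurod1, a neurogenic bHLH factor, with 2 counts in p53-KO EpiLC and 248 in WT EpiLC, a log2 ratio of -6.06 (-10.04 to -5.12). Fosb, an immediate-early partner of Jun, had 0.818 CPM in p53-KO EpiLC and 50.8 CPM in WT EpiLC, the highest level of any library. Zfp970, a zinc finger gene with close relatives nearby, had 0 counts in p53-KO EpiLC and 113 in WT EpiLC; reads of such a family may be split between copies. Zfp365 had 2.08 and 59.0 CPM, Trp53i11, a p53-inducible gene, 3.02 and 57.2 CPM, and Has2, a hyaluronan synthase, 0.755 and 19.7 CPM in p53-KO and WT EpiLC. Slc35d3, Jph4, Fam131b, Fst, Pdzrn3, Enpp2, Spon1 and Sema6a completed the lowest genes, with log2 ratios between -4.68 and -3.97. Of these, Jph4 and Sema6a were well expressed in the WT library, at 94.6 and 74.8 CPM, against 4.53 and 4.66 CPM in p53-KO. Gapdh had 21.9 CPM in p53-KO EpiLC and 596 CPM in WT EpiLC; it has many near-identical pseudogene copies that can take its reads, so this value is uncertain.

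The p53 targets were lower as a group in p53-KO EpiLC. Of 41 listed genes 38 were among the autosomal genes compared, and 24 of these (63.2%) were at least 2-fold lower and 0 higher, against 6.75% and 10.1% of all genes. Their median log2 ratio was -1.41, and their summed level was 1850 CPM in p53-KO EpiLC and 4739 CPM in WT EpiLC over the 41 genes. The list was chosen with earlier results of these data known.

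Cell cycle brakes were among the most reduced targets. Cdkn1a, which encodes the inhibitor p21, had 12.02 CPM in p53-KO EpiLC and 116 CPM in WT EpiLC, a log2 ratio of -3.26 (-3.49 to -3.06). Ccng1, encoding cyclin G1, had 30.2 CPM in p53-KO EpiLC and 457 CPM in WT EpiLC, a log2 ratio of -3.91 (-4.05 to -3.78). Btg2, an antiproliferative gene, had 9.57 and 40.4 CPM, and Plk2, a stress-induced kinase, 9.82 and 57.9 CPM in the same order. Each of these 4 genes was lower in p53-KO EpiLC than in all other libraries except the diploid p53-KO EpiSC library for Cdkn1a, at 4.34 CPM.

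Most of the named targets in apoptosis and survival signalling were lower too, with a range of sizes. Phlda3, a repressor of Akt, had 3.53 CPM in p53-KO EpiLC and 50.01 CPM in WT EpiLC. Bbc3, which encodes the BH3-only protein PUMA, had 11.3 and 61.0 CPM, and the pore-forming Bax 82.3 and 220 CPM. Apaf1, which forms the apoptosome, had 35.6 and 86.7 CPM. Pmaip1, which encodes NOXA, differed less, at 68.8 CPM in p53-KO EpiLC and 121 CPM in WT EpiLC. Perp, another target tied to cell death, had 11.3 and 10.2 CPM, within 2-fold. In the wider BCL2 family, 13 genes were measured, of which 2 were higher and 2 lower, against 10.1% and 6.75% of all genes. Their median was near 0, and the survival genes Mcl1 and Bcl2l1 had log2 ratios of 0.10 and -0.12.

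Feedback and repair targets were less uniform. Mdm2, the ligase that degrades p53, had 90.8 CPM in p53-KO EpiLC and 211 CPM in WT EpiLC, a log2 ratio of -1.22 (-1.31 to -1.13), which with total counts only was -0.99, just under 2-fold. Trp53inp1 had 51.0 and 229 CPM, Zmat3, an RNA-binding regulator, 45.2 and 217 CPM, and Sesn2, a stress-induced brake on mTORC1, 79.4 and 189 CPM. The nucleotide excision repair genes Xpc and Ddb2 had log2 ratios of -0.37 and -0.30, and the nucleotide synthesis gene Rrm2b had 0.12. Outside the autosomes, the target Eda2r had 62 counts in p53-KO EpiLC and 1110 in WT EpiLC, although the X-linked genes as a whole were higher in p53-KO.

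The promoter of Cdkn1a is shown because it is a direct p53 target whose level differed strongly here. The bases are those just before a start site of this gene (RefSeq, GRCm38.p6, plus strand, chr17:29090829-29090978). Only a window with a match was shown, and any other start site of the gene was not set beside it. Capitals mark 2 strict matches of the p53 half-site consensus and the 12 bases between them. Looser half-sites were not searched, so the capitals need not be the bases that p53 binds.
Cdkn1a: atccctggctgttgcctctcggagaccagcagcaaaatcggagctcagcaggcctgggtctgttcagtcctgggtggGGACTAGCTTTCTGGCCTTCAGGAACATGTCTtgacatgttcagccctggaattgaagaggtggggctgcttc

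A pair of p53 half-sites at most 13 bases apart, searched on both strands by the consensus named p53 half-site, was present in the promoter windows (250 bases before to 50 after the start) of 20 of 27025 RefSeq genes (0.074%) and in 1 of the 28 p53 targets with a window. The pair was also present in 1 of 33 interferon-stimulated members with a window. A single half-site was present in 11 of the 28 targets (39.3%), in 7 of the 33 interferon-stimulated members (21.2%) and in 9.55% of all genes. The half-sites of Ccng1 (chr11:40755462-40755471, minus strand), Ckap2 (chr8:22186013-22186022, minus strand) and Gtse1 (chr15:85859955-85859964, plus strand) are given for comparison, on the strand of the gene, with the half-site in capitals and 8 bases on each side.
Ccng1: acctgcccGGGCAAGCCTtggcactg
Ckap2: gtgtctgaAGACATGTCCtgacttgt
Gtse1: gcaagttgGGGCTTGCCTctgacttg
Ccng1, as given above, was the lowest of the 38 targets, while Ckap2 and Gtse1, which act on the mitotic spindle and in G2, had log2 ratios of -1.90 and -1.89. A match of letters is a description and says nothing of binding.

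**Figure D2:**
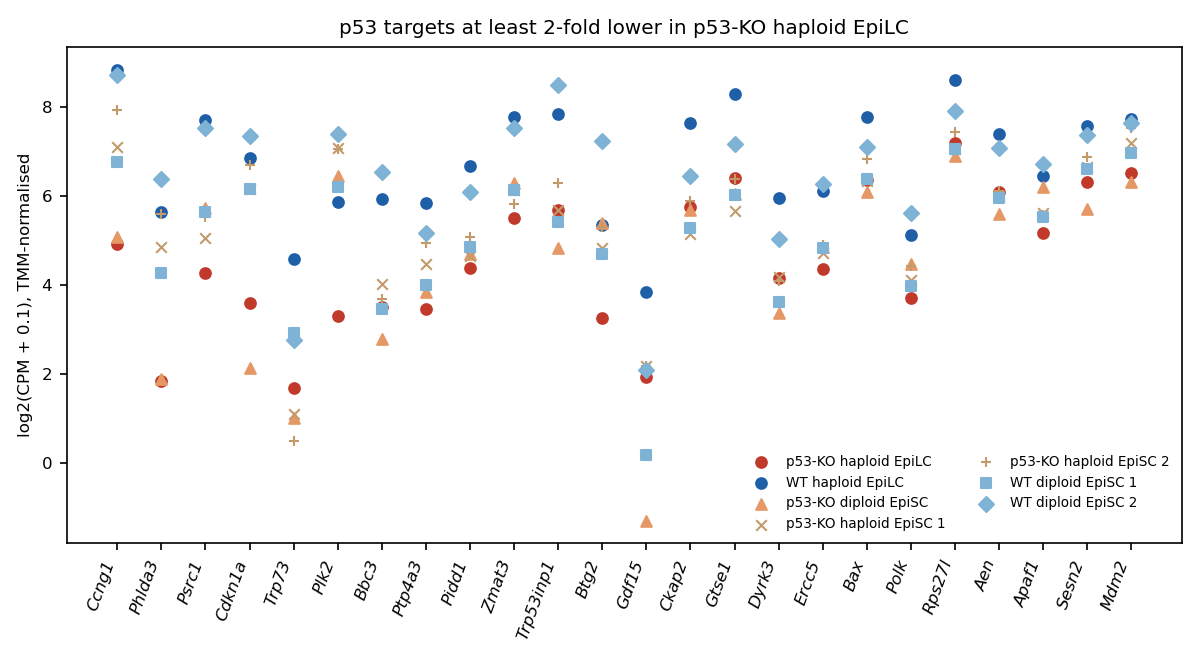
Levels, as log2(CPM + 0.1), of the 24 p53 targets that were at least 2-fold lower in p53-KO EpiLC (red circles) than in WT EpiLC (blue circles), ordered by their ratio, with the 5 EpiSC libraries beside them; WT diploid EpiSC 1 is the female library and 2 the male one. Over all 38 targets, the 3 p53-KO EpiSC libraries lay below the male WT EpiSC library in 27 and below the female one in 4.

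The EpiSC libraries, which share no sample with the EpiLC pair, gave a mixed picture for the same targets. In the diploid p53-KO EpiSC library 22 of the 38 targets were below both WT EpiSC libraries, against 29.7% of all genes. In both haploid p53-KO EpiSC libraries 6 of 38 (15.8%) were, the same share as the 15.8% of all genes. In all 3 p53-KO EpiSC libraries 3 of 38 were below both WT libraries, against 7.71% of all genes. The counts thus turned on which p53-KO library was used, and also on which WT library. All 3 p53-KO libraries were below the male WT library in 27 of 38 targets, against 27.2% of all genes, and below the female WT library in 4 of 38, against 21.2%. The female library is the one with 36.9 CPM of Trp53, while the haploid p53-KO EpiSC libraries had 50.5 and 61.8 CPM and the diploid one 2.17 CPM.

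Interferon-stimulated genes formed the group that was highest in p53-KO EpiLC. Of 50 listed genes 43 were measured, and 39 of these (90.7%) were at least 2-fold higher and 0 lower, against 10.1% and 6.75% of all genes. The median log2 ratio was 3.71, and the 50 genes summed to 3265 CPM in p53-KO EpiLC, against 745 CPM in WT EpiLC. The 4 members within 2-fold were Adar, Ifit2, Ifitm1 and Ifitm2, with log2 ratios between -0.48 and 0.72. The 7 genes under the count minimum ran the same way or near it, from Ifi44 with 58 counts in p53-KO EpiLC and 0 in WT EpiLC to Dhx58 with 49 and 34.

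Regulators of the response itself were high. Usp18, which cleaves the ubiquitin-like ISG15 from proteins and damps signalling at the interferon receptor, had 804 counts (50.6 CPM) in p53-KO EpiLC and 0 in WT EpiLC, at least 261-fold higher. Isg15 had 702 counts (44.2 CPM) in p53-KO EpiLC and 1 in WT EpiLC, a log2 ratio of 7.94 (6.94 to 14.73). Irf7, the transcription factor that amplifies interferon production, had 53.01 CPM in p53-KO EpiLC and 0.581 CPM in WT EpiLC, a log2 ratio of 6.25 (5.58 to 7.65). Stat2 and Irf9, transcription factors that carry the interferon signal to the genome, were higher by smaller amounts. Stat2 had 86.9 CPM in p53-KO EpiLC and 36.4 CPM in WT EpiLC, and Irf9 had 33.7 and 10.5 CPM.

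The effectors included sensors and antiviral enzymes. Xaf1, which promotes apoptosis by opposing the caspase inhibitor XIAP, had 107 CPM in p53-KO EpiLC and 0.258 CPM in WT EpiLC, a log2 ratio of 8.17 (7.34 to 10.58). Oasl1, a member of the oligoadenylate synthetase family, had 129 and 0.903 CPM, and Ifi27, a small mitochondrial protein, 124 and 0.581 CPM. The RNA sensors Ifih1 (MDA5) and Ddx58 (RIG-I) had 17.4 and 174 CPM in p53-KO EpiLC, against 0.129 and 5.49 CPM in WT EpiLC, with log2 ratios of 6.16 (5.21 to 10.13) and 4.96 (4.68 to 5.32). Both sensors of foreign RNA were thus higher, with Ddx58 already detectable in WT EpiLC. Mx2, a dynamin-like GTPase, had 418 and 3 counts, a log2 ratio of 6.42 (5.53 to 9.37), and the GTPases Irgm1 and Gbp3 had 182 and 38.97 CPM, against 12.4 and 1.16 CPM. Oas1a, Trim30a and the Gbp genes have close paralogues among which counting can split reads, so their single values are less certain than the group.

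The promoter of Isg15 is shown because it holds the element through which interferon acts on these genes, the interferon-stimulated response element, whose core is searched here as GAAA, any 2 bases and GAAAC, on both strands. The bases are those just before its start site (RefSeq, GRCm38.p6, minus strand, chr4:156200819-156200968), and capitals mark 2 overlapping matches.
Isg15: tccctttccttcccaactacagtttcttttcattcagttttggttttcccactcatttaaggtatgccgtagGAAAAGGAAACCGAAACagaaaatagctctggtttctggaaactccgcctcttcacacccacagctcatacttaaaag

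The matches of 7 other members are set below one another with 8 bases on each side, fewer where the window ends, each read on the strand that spells the motif, from the highest to the lowest log2 ratio. The capitals lie at chr7:104446114-104446124 (plus strand) for Trim30a, chr2:62646213-62646223 (minus) for Ifih1, chr5:120907535-120907545 (minus) for Oas1a, chr19:34640784-34640794 (minus) for Ifit1, chr4:40239814-40239824 (plus) for Ddx58, chr3:142559998-142560008 (minus) for Gbp3 and chr11:48871434-48871444 (minus) for Irgm1.
Trim30a: ggaactgaGAAAAAGAAACtaaaaaca
Ifih1: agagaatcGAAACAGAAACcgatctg
Oas1a: cttctcggGAAATGGAAACtgaaaatc
Ifit1: tgagactgGAAAGTGAAACtgaagcct
Ddx58: ggccatagGAAATCGAAACtgcctcag
Gbp3: gggaaataGAAACTGAAACtgtgtcct
Irgm1: aagaaataGAAACCGAAACtgattctc
These genes had log2 ratios from 7.24 for Trim30a to 3.86 for Irgm1. The motif was present in 13 of the 33 interferon-stimulated members with a promoter window (39.4%), against 0.944% of all 27025 genes in the table. It was present in 29 of 815 genes that were 2-fold higher and had a window (3.56%), and in 4 of 520 that were 2-fold lower (0.769%). It was found in 0 of 18 naive and 0 of 15 post-implantation genes with a window. No match says only that these letters are not in the window.

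Genes that act before the response were nearer to equal but leaned higher. Of 12 measured genes of interferon production and reception 3 (25%) were higher and 0 lower, against 10.1% and 6.75% of all genes. The median log2 ratio was 0.30, against -0.05 over all genes, and 10 of the 12 were above 0. With upper quartile factors the median was 0.11, against -0.25 over all genes. The receptor chain Ifnar1 had 54.0 CPM in p53-KO EpiLC and 49.8 CPM in WT EpiLC, the kinase Tbk1 71.6 and 60.5 CPM, and the adaptor Mavs 30.4 and 26.8 CPM. Ifnb1, which encodes interferon beta, had 2 counts in p53-KO EpiLC and 0 in WT EpiLC, which is under the floor. The 3 higher genes were Zc3hav1, an antiviral RNA-binding protein that interferon also induces, with 80.6 and 5.81 CPM, the receptor chain Ifngr2 and the feedback inhibitor Socs1. Among 13 genes of antigen presentation, 7 (53.8%) were higher and 1 (7.69%) lower, against the same shares of all genes. B2m, the light chain of MHC class I, had 46.3 CPM in p53-KO EpiLC and 10.8 CPM in WT EpiLC, and the peptide loader Tapbp had 113 and 32.5 CPM. Calr, a chaperone of the same pathway, was the lower one, at 457 and 952 CPM.

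Across the series the interferon-stimulated genes did not follow the p53 label. Usp18 had 29.8 and 99.3 CPM in the haploid p53-KO EpiSC libraries but 0.62 CPM in the diploid one, against 25.2 and 18.6 CPM in the female and male WT EpiSC libraries. In 37 of 43 members the diploid p53-KO EpiSC library was below both WT EpiSC libraries, against 29.7% of all genes, and in 25 of 43 both haploid p53-KO libraries were above both, against 15.8%. For 18 of 43 members the p53-KO EpiLC library was the highest of all 10 libraries, against 9.80% of all genes and 25.9% of the 1083 higher genes. For 9 of 43 the WT EpiLC library was the lowest, against 11.2% and 40.3%. The diploid WT ESC library was also near the bottom for Usp18, at 0 CPM, and for Isg15, at 0.0621 CPM.

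Some fibroblast genes were also higher in p53-KO EpiLC, at low levels. Of 13 measured genes of the fibroblast list 5 were higher and 1 lower, against 10.1% and 6.75% of all genes, with a median of 0.95. The 27 genes of the list summed to 1116 CPM in p53-KO EpiLC, against 592 CPM in WT EpiLC and 99680 CPM in MEF. Col3a1, a fibrillar collagen, had 158 counts (9.95 CPM) in p53-KO EpiLC and 0 in WT EpiLC, Col1a1 had 30.4 and 1.94 CPM, and Postn, which encodes periostin and was under the count minimum, had 89 and 0 counts. Mmp2, a gelatinase, was the lower one, at 14.4 and 42.5 CPM. Relative to MEF, the p53-KO EpiLC library held 0.124% of the Col1a1 level, 0.0670% of Col3a1, 0.212% of Postn, 2.06% of Thy1 and 3.06% of Fbln2. It held 140% of the MEF level of Usp18, 265% of Xaf1 and 1890% of Oasl1, but 43.9% of Isg15 and 99.7% of Irf7. Of the 43 interferon-stimulated members 26 were at or above their MEF level in p53-KO EpiLC. The count was 0 of 27 for the fibroblast list. That list is made of genes typical of MEF, so its count was largely fixed in advance and no conclusion is drawn from the contrast. Among all 1083 higher genes 634 (58.5%) were at or above their MEF level. The part of fibroblast transcripts in the result was not tested, and in bulk RNA fewer cells of a type and less RNA per cell cannot be told apart.

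**Figure D3:**
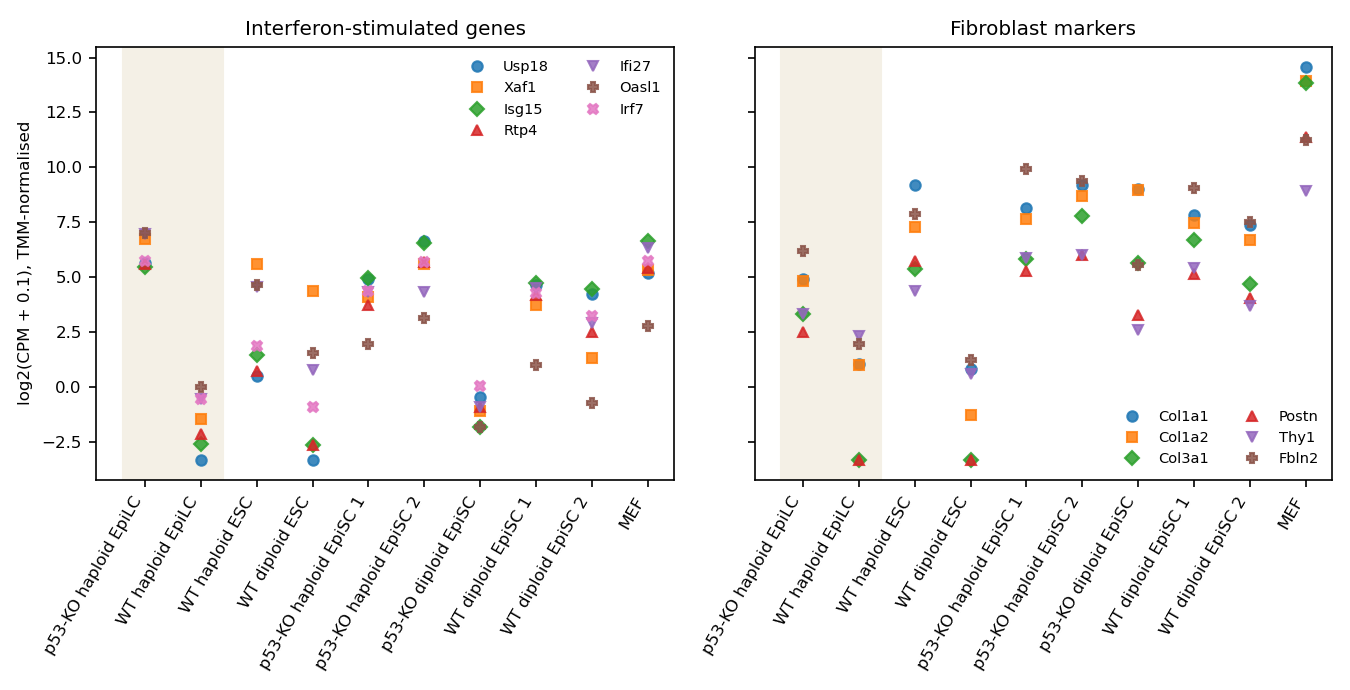
Levels, as log2(CPM + 0.1), of 7 interferon-stimulated genes (left) and 6 fibroblast markers (right) in the 10 libraries, 1 symbol per gene, with the EpiLC pair shaded. In p53-KO EpiLC these 7 interferon-stimulated genes stand at 43.9% (Isg15) or more of their MEF levels, and the fibroblast markers are far below theirs. The markers are typical of MEF, so that contrast was largely fixed in advance. Of all 43 interferon-stimulated members 26 were at or above their MEF level. The diploid p53-KO EpiSC library is low in Usp18, at 0.62 CPM, but not in Col1a1, at 523 CPM.

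Naive pluripotency genes were higher in p53-KO EpiLC. Of 29 listed genes 26 were measured, and 17 (65.4%) were at least 2-fold higher and 1 lower, against 10.1% and 6.75% of all genes, with a median log2 ratio of 2.38. Their levels were mostly between those of WT EpiLC and ESC. For 14 of 26 members the p53-KO EpiLC level lay above WT EpiLC and below both ESC libraries, a position held by 10.4% of all genes compared. Naive genes are typically high in ESC, and most were higher in this pair. The position was therefore partly fixed in advance, and no conclusion is drawn from the contrast with all genes.

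Transcription factors led the naive group. Tbx3, a T-box factor that sustains naive cells, had 677 counts (42.6 CPM) in p53-KO EpiLC and 4 (0.258 CPM) in WT EpiLC, a log2 ratio of 6.84 (6.004 to 9.25), and 283 and 339 CPM in haploid and diploid ESC. Klf2 had 108 CPM in p53-KO EpiLC and 5.16 CPM in WT EpiLC, Tfcp2l1 132 and 8.07 CPM, Esrrb 186 and 16.8 CPM, and Klf5 258 and 27.1 CPM. Zfp42, the naive marker REX1, had 142 CPM in p53-KO EpiLC and 26.7 CPM in WT EpiLC, while the 2 ESC libraries had 181 and 537 CPM. Nanog differed less, at 99.8 CPM in p53-KO EpiLC and 42.3 CPM in WT EpiLC, and Klf4 little, at 13.4 and 9.87 CPM. Klf2, at 90.4 CPM in haploid ESC, and Klf5, at 241 CPM there, were not below the haploid ESC level in p53-KO EpiLC.

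The naive list also holds genes of LIF signalling, a grouping made after their values were seen. Stat3, the effector of LIF, had 188 CPM in p53-KO EpiLC and 27.9 CPM in WT EpiLC. Its feedback inhibitor Socs3 had 23.5 and 5.29 CPM, and the receptor chain Il6st had 83.5 and 26.7 CPM. The LIF receptor Lifr had 44.2 and 22.4 CPM, just under 2-fold. Gbx2, which is linked to both LIF signalling and the transition out of the naive state, was the lower member, at 9.38 CPM in p53-KO EpiLC and 35.4 CPM in WT EpiLC. Dppa2, Dppa4 and Dppa5a, which stood at 129 CPM or more in both EpiLC libraries and at 3.16 CPM or less in EpiSC, had log2 ratios of -0.02, -0.14 and -0.19.

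Post-implantation epiblast genes were lower in p53-KO EpiLC. Of 22 measured genes 15 (68.2%) were at least 2-fold lower and 0 higher, against 6.75% and 10.1% of all genes, with a median log2 ratio of -1.25. For 18 of the 22 the p53-KO EpiLC level lay below WT EpiLC and above both ESC libraries, against 19.3% of all genes compared. Genes of this list are typically low in ESC, and most were lower in this pair. That position was therefore partly fixed in advance, and no conclusion is drawn from the contrast with all genes. For 11 of the 22 the WT EpiLC library was the highest of the 10 libraries, against 20.3% of all genes compared and 39.7% of the 723 lower genes.

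Secreted factors and their antagonists included Fgf5, with a log2 ratio of -1.49 (-1.63 to -1.36), Fgf15, an early epiblast FGF, with 6.04 CPM in p53-KO EpiLC and 69.1 CPM in WT EpiLC, and Fst, which encodes the activin inhibitor follistatin, with 0.818 and 17.5 CPM. Among transcription factors Sall2 had 26.1 and 166 CPM, Pou3f1, encoding OCT6, 182 and 388 CPM, Zic2 55.7 and 157 CPM, and Lef1, a Wnt effector, 63.8 and 156 CPM. Otx2, Etv4 and Etv5 were within 2-fold, at log2 ratios of -0.46, -0.53 and -0.30. Fgf5, Pou3f1 and Lef1 remained far above both ESC libraries in p53-KO EpiLC, since the higher ESC value of each was 0.15, 12.2 and 3.17 CPM.

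Of 12 DNA methylation genes 2 were higher and 2 lower, against 10.1% and 6.75% of all genes. The de novo methyltransferases Dnmt3b and Dnmt3a, which are switched on as cells leave the naive state, had 648 and 176 CPM in p53-KO EpiLC, against 2981 and 994 CPM in WT EpiLC. Dnmt3l, their catalytically inactive partner, went the other way, with 527 CPM in p53-KO EpiLC and 115 CPM in WT EpiLC, and exceeded both ESC libraries at 143 and 236 CPM. Tet2, a dioxygenase of naive cells that starts demethylation, had 69.6 CPM in p53-KO EpiLC and 8.97 CPM in WT EpiLC. Tet1, another dioxygenase, had 468 CPM in both libraries, and the maintenance genes Uhrf1 and Dnmt1 had log2 ratios of -0.02 and -0.50.

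**Figure D4:**
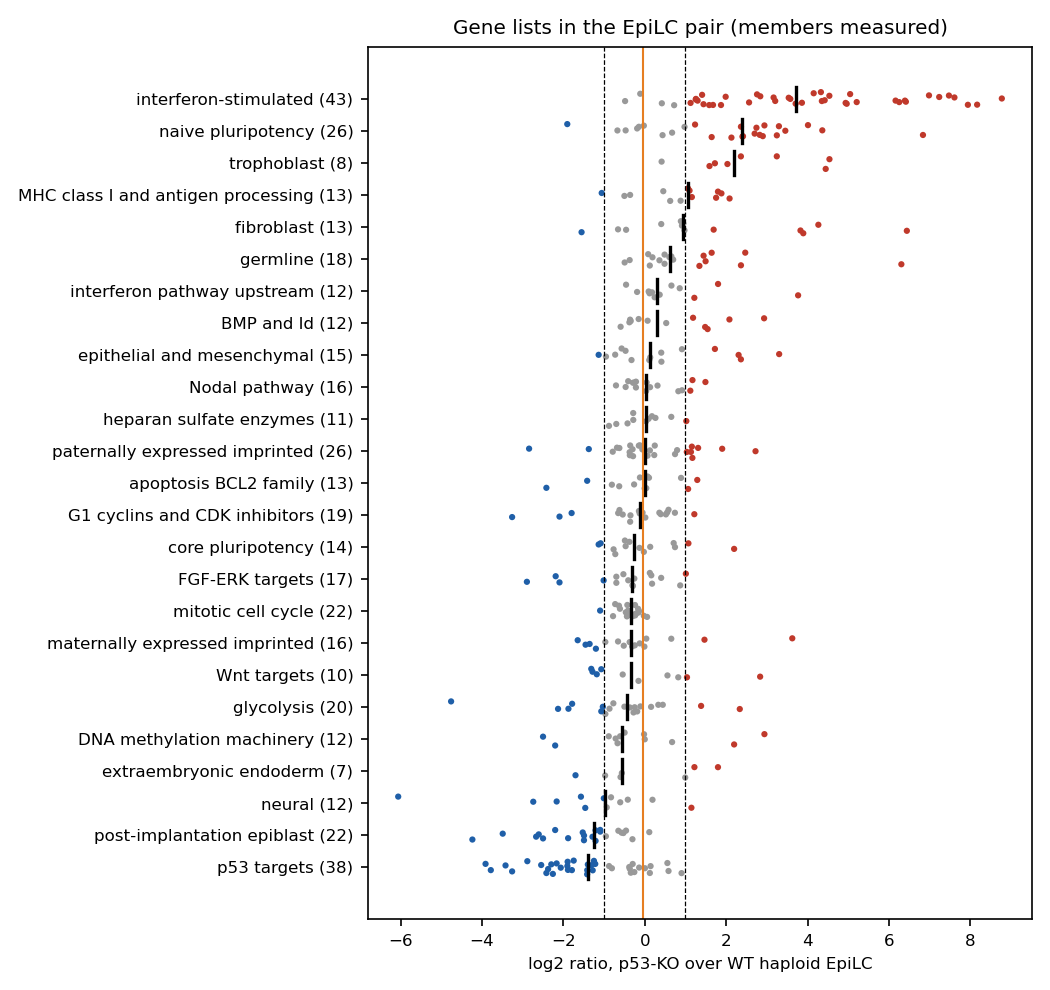
Log2 ratios of p53-KO over WT EpiLC for the members of 25 gene lists with at least 5 members, 1 point per gene, red where at least 2-fold higher, blue where at least 2-fold lower and grey between; black bars are list medians, the orange line is the median of all genes at -0.05, and the number measured stands in brackets. Interferon-stimulated genes (median 3.71) are at the top and p53 targets (median -1.41) at the bottom.

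Of 14 core pluripotency genes 2 were higher and 2 lower, against 10.1% and 6.75% of all genes, with a median of -0.25. Sox2 had 192 CPM in p53-KO EpiLC and 91.1 CPM in WT EpiLC, a log2 ratio of 1.07 (0.98 to 1.17), and was the other higher gene beside Dnmt3l; with upper quartile factors its log2 ratio was 0.87, under 2-fold. Pou5f1, Sall4 and Lin28a, which are shared by naive and primed cells, had log2 ratios of -0.72, 0.74 and -0.49. Cdh1, the adhesion molecule E-cadherin, had 621 and 1363 CPM, and Lin28b, a let-7 inhibitor of primed cells, 50.2 and 107 CPM.

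Of 25 autosomal genes of the neural list 12 passed the count minimum, with 6 lower and 1 higher, against 6.75% and 10.1% of all genes. Neurod1, with the counts given above, was highest in WT EpiLC among the 10 libraries; the next was the male WT EpiSC library at 4.41 CPM. The Notch ligand Dll3 had 2.77 CPM in p53-KO EpiLC and 19.2 CPM in WT EpiLC, the neuronal tubulin Tubb3 15.0 and 67.9 CPM, and the intermediate filament Nes 29.8 and 88.7 CPM. Sox1, the earliest neural marker, had 19 counts in p53-KO EpiLC and 98 in WT EpiLC, under the minimum. The higher gene was Stmn2, a microtubule regulator, at 72.3 and 32.6 CPM.

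Of the 8 trophoblast genes measured 7 were at least 2-fold higher and 0 lower, against 10.1% and 6.75% of all genes, with a median of 2.20. Tfap2c, which acts in trophoblast and naive cells alike, had 34.1 CPM in p53-KO EpiLC and 1.36 CPM in WT EpiLC, and Tead4 had 27.9 and 2.84 CPM; both were higher still in the 2 ESC libraries, at 112 and 89.3 CPM for Tfap2c. Hand1, a factor of trophoblast giant cells and mesoderm, had 13.7 CPM in p53-KO EpiLC and 0.516 CPM in WT EpiLC. The simple-epithelial keratins Krt8 and Krt18 had 98.0 and 117 CPM in p53-KO EpiLC, against 18.97 and 35.3 CPM in WT EpiLC. Defining markers stayed low: Cdx2 had 37 and 9 counts, Elf5 6 and 0, and Tpbpa 0 in both. Primitive streak genes were nearly silent, with 1 of 24 measured, and T had 10 and 7 counts. Of the 7 extraembryonic endoderm genes measured 2 were higher and 1 lower, against 10.1% and 6.75% of all genes. Gata4 had 62 and 17 counts, Gata6 12 and 3, and Sox17 8 and 4.

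Of 18 germline genes measured 7 were higher and 0 lower, against 10.1% and 6.75% of all genes, with a median of 0.63. Stra8, which licenses meiosis, had 468 counts (29.5 CPM) in p53-KO EpiLC and 4 (0.258 CPM) in WT EpiLC, against 37.95 and 29.1 CPM in haploid and diploid ESC and no more than 0.23 CPM in any EpiSC library. Slc25a31, a germ cell ATP carrier, had 53.8 and 9.62 CPM, Mael, a piRNA factor, 71.01 and 26.01 CPM, and Sycp3, of the synaptonemal complex, 11.96 and 4.65 CPM. The genes of the 2-cell-like state were under the minimum in all 18 cases, and together they reached 25.8 CPM in p53-KO EpiLC, against 11.5 CPM in WT EpiLC and 239 CPM in haploid ESC.

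Signalling lists were mixed, and their counts compare with 10.1% of all genes higher and 6.75% lower. In the FGF-ERK list 4 of 17 genes (23.5%) were lower and 1 (5.88%) higher. The immediate-early genes Fos and Egr1 had 5.35 and 71.1 CPM in p53-KO EpiLC, against 40.6 and 325 CPM in WT EpiLC. The feedback genes Dusp6, Spry4 and Spry2 were within 2-fold, at log2 ratios of -0.70, -0.41 and -0.29. Ccnd1, encoding cyclin D1, had 49.4 and 211 CPM. Of 12 genes of the BMP list 5 (41.7%) were higher and 0 lower, with Msx1 at 12.6 and 1.55 CPM, Bmp4 at 8.56 and 1.94 CPM and Id1 at 10.1 and 4.39 CPM. In the Nodal list 3 of 16 (18.8%) were higher and 0 lower. They were the inhibitors Lefty1, at 339 and 150 CPM, and Lefty2, at 166 and 76.3 CPM, and the convertase Furin. Nodal itself had a log2 ratio of 0.83. Of 10 Wnt targets 2 (20%) were higher, among them the Wnt inhibitor Notum at 7.62 and 0.968 CPM, and 4 (40%) lower.

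The mitotic genes differed by small steps. Of the 22 mitotic genes 1 (4.55%) was at least 2-fold lower and 0 higher, against 6.75% and 10.1% of all genes. It was the checkpoint gene Mad2l1, at 89.7 CPM in p53-KO EpiLC and 192 CPM in WT EpiLC. All but 1 of the 22 had a log2 ratio below 0, with a median of -0.34. The median of all genes was also below 0, at -0.05. Among 19 G1 genes 1 was higher and 3 lower, against 10.1% and 6.75% of all genes, with Rb1 at 7.49 and 26.3 CPM. Of 20 glycolysis genes 6 were lower and 2 higher, against 6.75% and 10.1% of all genes, with a median of -0.43 and larger single differences. Ldha, which makes lactate, had 621 CPM in p53-KO EpiLC and 2719 CPM in WT EpiLC, and the lactate exporter Slc16a3 had 105 and 387 CPM. The glucose transporter Slc2a3 was higher, at 877 and 174 CPM, as was the hexokinase Hk1, at 72.8 and 27.8 CPM. With total counts only, the medians of the mitotic and glycolysis lists moved to -0.11 and -0.20 while that of all genes was 0.18.

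Imprinted genes differed in both directions. Of 26 paternally expressed genes 7 (26.9%) were higher and 2 (7.69%) lower, with a median near 0. Of 16 maternally expressed genes 2 (12.5%) were higher and 4 (25%) lower, with a median of -0.34. Among all genes 10.1% were higher and 6.75% lower. Peg10, a paternally expressed gene of retrotransposon origin, had 1315 CPM in p53-KO EpiLC and 199 CPM in WT EpiLC, and Slc38a4, an amino acid transporter, 559 and 149 CPM. H19, a maternally expressed non-coding RNA, had 137 CPM in p53-KO EpiLC and 11.0 CPM in WT EpiLC, and the haploid and diploid ESC libraries had 136 and 11.6 CPM. The maternally expressed RNAs of the Dlk1-Dio3 region were lower together: Meg3 had 346 and 948 CPM, Rian 361 and 1131 CPM, and Mirg 30.5 and 78.1 CPM. Neighbouring transcripts of a region can share reads where the counting does not use strand, and the sources used here do not give the strand setting.

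Heparan sulfate enzymes and epithelial and mesenchymal genes completed the lists. Of 11 heparan sulfate enzymes 1 was higher and 0 lower, against 10.1% and 6.75% of all genes. The higher one was the chain polymerase Ext2, at 54.1 CPM in p53-KO EpiLC and 26.6 CPM in WT EpiLC. Hs3st3b1, a heparan sulfate sulfotransferase after which the series is titled, had 36 counts in p53-KO EpiLC and 12 in WT EpiLC, under the minimum. Of 15 epithelial and mesenchymal genes 4 were higher, Zeb1, Krt8, Cldn4 and Krt18, and 1, Cdh1, was lower, against 10.1% and 6.75% of all genes. Zeb1, a repressor of epithelial genes, had 10.6 CPM in p53-KO EpiLC and 0.968 CPM in WT EpiLC, while the tight junction gene Cldn4 had 312 and 63.0 CPM, so genes of both states were among the higher ones.

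Chromosomes 6 and 8 stood apart from the other autosomes. The median log2 ratio was -0.27 over 519 genes of chromosome 6 and -0.36 over 619 genes of chromosome 8, while the other autosomes ran from -0.11 to 0.08. Of the chromosome 8 genes 76 (12.3%) were at least 2-fold lower and 29 (4.68%) higher, against 6.75% and 10.1% of all genes. The shift lay in the WT library. With each gene set against its median over the 10 libraries, chromosome 6 stood at 0.02 in p53-KO EpiLC and 0.27 in WT EpiLC, and chromosome 8 at -0.03 and 0.29, while the other 8 libraries stayed between -0.08 and 0.02 on these chromosomes. The X chromosome stood at 0.51 in p53-KO EpiLC, the highest of the 10 libraries, and at -0.16 in WT EpiLC. It was also raised in WT haploid ESC, at 0.35, and in the first haploid p53-KO EpiSC library, at 0.38. The second haploid p53-KO EpiSC library stood at -0.12, and the diploid libraries, MEF among them, ran from -0.30 to -0.03. Without chromosomes 6 and 8, 988 of 9575 genes were at least 2-fold higher and 591 lower. Whether these levels reflect chromosome number was not tested.

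**Figure D5:**
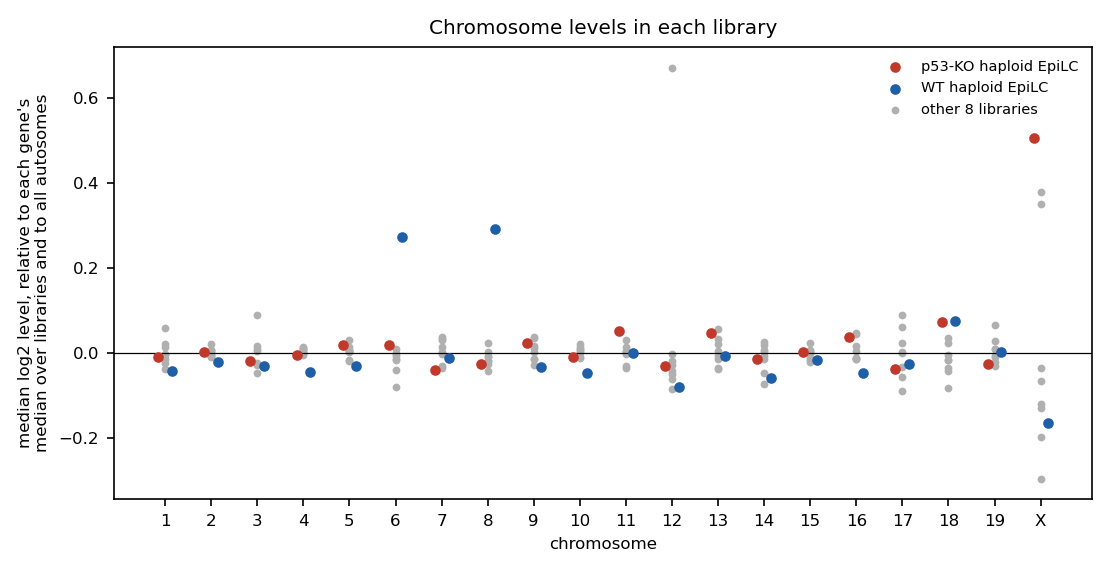
Median log2 level of the genes of each chromosome, relative to each gene's median over the 10 libraries and to the median of all autosomes, in p53-KO EpiLC (red), WT EpiLC (blue) and the other 8 libraries (grey). WT EpiLC lies at 0.27 and 0.29 on chromosomes 6 and 8. On the X chromosome p53-KO EpiLC lies at 0.51, and the grey points at 0.35 and 0.38 are WT haploid ESC and the first haploid p53-KO EpiSC library. The grey point at 0.67 on chromosome 12 is the female WT EpiSC library.

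The overlap with EpiSC depended on which EpiSC libraries were set against each other. All 3 p53-KO EpiSC libraries lay above both WT EpiSC libraries for 893 genes (8.34%) and below both for 826 (7.71%). Of the 1083 genes higher in p53-KO EpiLC 112 (10.3%) lay above in EpiSC, which is 12.5% of the EpiSC list, and 44 lay below. Of the 723 lower genes 94 (13.001%) lay below in EpiSC, which is 11.4% of that list, and 31 lay above. The shares on the same side compare with 8.34% and 7.71% of all genes. With only the haploid p53-KO EpiSC libraries, 362 of the 1083 higher and 173 of the 723 lower genes lay on the same side, against 15.8% and 15.8% of all genes. With only the diploid one it was 241 of 1083 and 233 of 723, against 34% and 29.7%. Without the female WT library the counts were 319 of 1083 against 23.4% of all genes, and 272 of 723 against 27.2%.

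Protein-coding genes made up 95.1% of all genes compared, 93.6% of the higher and 92.9% of the lower ones. Genes assigned to a transcription factor family in the deposited table made up 7.14% of all, 8.86% of the higher and 8.58% of the lower genes. The largest family, C2H2 zinc fingers, had 363 members, of which 37 were higher and 21 lower, against 10.1% and 6.75% of all genes. The median gene length given in the table was 4479 bases for all genes, 4111 for the higher and 4255 for the lower ones. The higher genes had a median of 23.7 CPM in p53-KO EpiLC and 6.001 CPM in WT EpiLC, and the lower genes 11.2 and 35.0 CPM.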

How the data were processed

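The authors deposited a table of whole-number counts per gene and a table of FPKM, each with 10 libraries. Per the submitters' processing notes, the tools were HISAT2 2.0.5 and featureCounts 1.5.0-p3 with mm10; per the labels' protocols, poly-A RNA was used. The deposited counts were the main measure. CPM used TMM factors over the 10 libraries (edgeR 4.0.16 in R 4.3.3), and log2 ratios used a prior count of 2. Count ratio intervals were exact conditional binomial 95% intervals (scipy 1.17.1), tested on simulated data. The deposited FPKM were used as log2(FPKM + 1) in 1 alternative. DESeq2 1.42.0 gave size factors for another.

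The members and the 29 gene lists (635 entries, 630 found) were chosen with earlier results of these data known. Named genes were the 15 protein-coding members highest and the 15 lowest by log2 ratio, without predicted and RIKEN symbols, the 4 marker genes Usp18, Xaf1, Tbx3 and Neurod1, up to 6 members per list with the largest ratios, checks, and members whose role is described. Promoter windows came from a RefSeq table of GRCm38.p6 (32851 windows, 27025 genes). The groups have 1 library each, so no test was made; intervals and floors cover counting error only. Sources used here do not give the counting's strand or multi-mapping settings.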

Additional observations from a re-analysis of the deposited data

Results flagged for a closer look

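For 2 of the genes named above the EpiLC pair and the EpiSC libraries pointed in opposite directions, and that difference was not tested. Fosb, an immediate-early transcription factor, had a log2 ratio of -5.77 in the EpiLC pair, while the 3 p53-KO EpiSC libraries, at 4.97, 6.68 and 9.37 CPM, were all above the female and male WT EpiSC libraries, at 3.78 and 2.38 CPM. Pdzrn3, a ubiquitin ligase, had a log2 ratio of -4.08 in the EpiLC pair, while the p53-KO EpiSC libraries, at 21.8, 24.1 and 18.8 CPM, were above the WT EpiSC libraries, at 17.6 and 5.71 CPM.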

How the results depend on the processing

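No paired analysis was possible because each EpiLC group has 1 library and no result comes from a test. Single ratios were checked under the alternative runs for 37 named genes, which were the highest and lowest genes and the marker and check genes. None of these 37 changed sign under any alternative run that gave it a value. Among them, Sox2 lost its 2-fold difference with upper quartile factors (0.87) and Mdm2 with total counts only (-0.99). The single ratios of the other named list members were not checked, so those near 0 or near 2-fold may cross with another scaling. Medians of lists near 0 did change sign: BCL2 family and G1 genes with total counts only, and Nodal, heparan sulfate, paternally expressed (-0.19), and epithelial and mesenchymal genes with upper quartile factors. The extraembryonic endoderm median turned positive under all 3 other count minimums, the Wnt median with no minimum and without chromosomes 6 and 8, the heparan sulfate median negative at 20 counts and with no minimum, and the BMP median negative (-0.040) at 500 counts. The paternally expressed and BCL2 family medians, within 0.01 of 0, also crossed it under other settings. With total counts only, list medians moved to 2.61 for naive, -0.023 core, -1.02 post-implantation, -0.34 extraembryonic endoderm, 0.53 interferon pathway upstream, 1.29 antigen presentation, -1.18 p53 targets, 0.22 BCL2 family, 0.23 paternally and -0.11 maternally expressed, -0.072 FGF-ERK, 0.27 Nodal, -0.32 DNA methylation, -0.11 mitotic, 0.10 G1, -0.20 glycolysis, 0.26 heparan sulfate, and 0.36 epithelial and mesenchymal genes. With upper quartile factors there were 1119 lower genes, and the medians were 2.19, -0.45, -1.44, -0.76 and 0.11 for the first 5 of these lists, -1.60 for p53 targets, -0.20 BCL2 family, -0.54 maternally expressed, -0.50 FGF-ERK, -0.16 Nodal, -0.75 DNA methylation, -0.54 mitotic, -0.32 G1, -0.63 glycolysis, -0.17 heparan sulfate, and -0.064 epithelial and mesenchymal genes. These scalings put the median of all genes at 0.18 and -0.25, against -0.05 in the main scaling, and turned the split into 1506 higher and 483 lower genes, and 850 and 1119.

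With at least 20 counts, 2072 genes were higher and 1287 lower, 196 and 158 of them on the same side in EpiSC, and medians were 0.99 for extraembryonic endoderm, -0.020 Wnt, -0.13 heparan sulfate, and 0.40 epithelial and mesenchymal genes. With at least 500 counts these were 426, 374, 53 and 48, and medians were 0.12 for extraembryonic endoderm, 1.47 germline, -0.41 FGF-ERK, -1.07 Wnt, -0.64 glycolysis, and 0.40 epithelial and mesenchymal genes. With no minimum they were 5081, 2800, 345 and 331, and medians were 0.73 for extraembryonic endoderm, -0.00896 maternally expressed, 0.11 Wnt, 0.71 BMP, -0.28 heparan sulfate, and 0.41 epithelial and mesenchymal genes. Fewer or more genes were compared in these 3. On log2(FPKM + 1), which shrinks low genes, medians were 1.70 for naive, -0.61 neural, -0.26 extraembryonic endoderm, 2.40 interferon-stimulated and 0.79 antigen presentation genes. Without chromosomes 6 and 8, chosen after seeing the data, medians were -0.13 for core, 0.20 Wnt, -0.28 glycolysis, and 0.40 epithelial and mesenchymal genes.

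With only the haploid p53-KO EpiSC libraries 362 higher and 173 lower genes lay on the same side, against 15.8% and 15.8% of all genes, and with only the diploid one 241 and 233, against 34% and 29.7%. Leaving out 1 EpiSC library at a time, also chosen after seeing the data, gave 149 to 362 higher and 124 to 272 lower genes. The count moved by over 1.5 times without the diploid p53-KO library (362 and 173, against 15.8% and 15.8% of all genes), the female WT library (319 and 272, against 23.4% and 27.2%) or the male WT library (294 and 239, against 25.6% and 21.2%). Fewer libraries have to lie on 1 side in these settings, so the shares of all genes are higher too.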
